A study of Homo sapiens with 24 samples.

Results

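The tricarboxylic acid (TCA) cycle enzymes described here were 9 listed genes, chosen by name with earlier results of these data known. A probe set was named for 8 of them in the annotation used, CS, IDH3A, IDH3B, IDH3G, OGDH, SUCLG1, SUCLG2 and MDH2, among 19775 named genes on the array, and the other listed gene is not analysed here. All 8 passed the filter on low signals, as 14141 genes did in all. RNA was measured on 24 Affymetrix arrays of human breast cancer cell lines, 3 arrays in each of 8 groups. HS578T, SUM149PT and SUM159PT cells were each given DMSO, the vehicle, or AZD3965 for 24 hours. AZD3965 blocks MCT1, a carrier that moves lactate and pyruvate across the plasma membrane. SUM149PT cells also carried a lentiviral scrambled shRNA or an shRNA against MCT1 and were selected with puromycin (2 µg/ml, over 5 days). The study asked whether MCT1 contributes to the glycolytic phenotype of these lines.

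Several features of the design limit the groups as models. Every group stands for 1 cell line, and the medium of all 3 lines held 10% serum. Both SUM lines alone were given F12 with insulin, hydrocortisone and EGF, while HS578T was grown in DMEM. In comparisons with HS578T, line and medium therefore cannot be told apart. Both shRNA groups carry a vector and puromycin selection that no drug group had. The labels give no dose of AZD3965 and do not say whether arrays of a group came from separate cultures, so the p-values rest on an array-to-array spread that may be technical only. The level of the gene that the shRNA targets is not analysed here, so the depth of the knockdown was not checked. In bulk RNA, fewer cells of a type and less RNA per cell cannot be told apart.

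The TCA cycle is the mitochondrial route by which the acetyl group of acetyl-CoA is oxidised to carbon dioxide while electrons are passed to the respiratory chain. Citrate synthase joins acetyl-CoA to oxaloacetate, isocitrate dehydrogenase and the 2-oxoglutarate dehydrogenase complex release carbon dioxide, succinyl-CoA ligase makes a nucleoside triphosphate, and malate dehydrogenase restores oxaloacetate. Glycolytic tumour cells send much of their pyruvate to lactate, which leaves through carriers such as MCT1, so the entry of carbon into the cycle is a usual question when such a carrier is blocked.

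Values are MAS5 signals, in arbitrary units on a linear scale, of the probe set of highest mean for each gene. Signals of different probe sets are not compared with each other. Errors of signals are standard deviations over 3 arrays. Differences are log2 fold changes of the signal plus 16, with standard errors from a limma fit of all 24 arrays, and a difference is called at a Benjamini-Hochberg adjusted p under 0.05 over all 14141 genes. No 2 arrays held identical values. The ratio of 3' to 5' probe signals of actin, a sign of RNA integrity, was 53.8 on scramble replicate 3 and 1.20 to 2.14 on the other arrays, and that of GAPDH was 2.35 against 0.798 to 0.948. Of the epithelial markers, EPCAM had a mean signal of 12.5 in HS578T, 54.6 in SUM159PT and 14970 in SUM149PT under DMSO, and CDH1 was at 4.25, 3.53 and 8772. KRT19 was likewise at 1.48, 1.83 and 4278, but KRT8 was at 306, 2949 and 6778 and KRT18 at 5629, 7470 and 15900, so 3 of the 5 epithelial markers were near background in HS578T and SUM159PT and KRT18 was not. The 5 markers summed to 5877 to 6015 in HS578T, 9372 to 11370 in SUM159PT and 49810 to 52150 in SUM149PT under DMSO. Summed signals of the leukocyte markers, 3 of 5 annotated, stayed between 34.9 and 570 over all arrays. CD14 had means of 389 and 442 in SUM149PT under DMSO and AZD3965. Adipocyte marker sums lay between 10.2 and 65.9 and endothelial ones between 118 and 504. PECAM1 had a mean of 338 in HS578T under DMSO. Under DMSO the mesenchymal markers summed to 60280 to 64200 in HS578T, 46340 to 51120 in SUM159PT and 29850 to 33050 in SUM149PT. In that order, ZEB1 had means of 4895, 3763 and 86.1, CDH2 of 8817, 4134 and 1428 and VIM of 23620, 23440 and 9516. FN1, at 25530, 16760 and 20370, was higher in SUM149PT than in SUM159PT. The basal markers, 2 of 4 annotated, summed to 1826 to 1972, 17.05 to 56.34 and 2200 to 2343 in the same order. These sums hide opposite directions between HS578T and SUM149PT. KRT5 had means of 31.6 in HS578T, 25.9 in SUM159PT and 2029 in SUM149PT, and KRT14 of 1881, 9.49 and 234.

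The promoters shown are those of genes whose signals ran closest together across the arrays, MDH2, IDH3B and SUCLG2, and of CS, which followed another pattern. Each is the 250 bases before the annotated start, 5' to 3' on the gene's strand, from RefSeq on GRCh38.p14. Capitals mark 2 of the 4 motifs searched on both strands, the ETS motif CCGGAAGT and the GC box GGGCGG. The MDH2 window is chr7:76047856-76048105 on the plus strand, the IDH3B window is chr20:2664217-2664466, the SUCLG2 window is chr3:67654613-67654862 and the CS window is chr12:56300331-56300580, the last 3 on the minus strand.
MDH2: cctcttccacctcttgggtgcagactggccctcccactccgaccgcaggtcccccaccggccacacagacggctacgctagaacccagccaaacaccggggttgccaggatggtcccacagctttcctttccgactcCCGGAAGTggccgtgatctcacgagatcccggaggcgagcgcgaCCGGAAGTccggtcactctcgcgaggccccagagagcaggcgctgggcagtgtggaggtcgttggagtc
IDH3B: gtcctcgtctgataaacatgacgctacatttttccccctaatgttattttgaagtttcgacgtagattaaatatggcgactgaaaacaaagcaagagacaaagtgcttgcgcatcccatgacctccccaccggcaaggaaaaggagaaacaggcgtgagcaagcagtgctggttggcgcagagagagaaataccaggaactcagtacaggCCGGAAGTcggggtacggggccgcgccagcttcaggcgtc
SUCLG2: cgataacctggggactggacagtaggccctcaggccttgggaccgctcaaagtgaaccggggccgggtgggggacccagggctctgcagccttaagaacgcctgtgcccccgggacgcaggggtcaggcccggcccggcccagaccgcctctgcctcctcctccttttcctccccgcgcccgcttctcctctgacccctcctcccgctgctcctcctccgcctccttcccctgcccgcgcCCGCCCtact
CS: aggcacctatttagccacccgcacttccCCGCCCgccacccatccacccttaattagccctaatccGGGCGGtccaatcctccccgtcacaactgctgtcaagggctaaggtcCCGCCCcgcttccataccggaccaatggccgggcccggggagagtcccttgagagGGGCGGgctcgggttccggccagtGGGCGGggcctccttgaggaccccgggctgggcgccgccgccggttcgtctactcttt

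A window was held for 7 of the 8 genes. CCGGAAGT was found in 2 of the 7, once in IDH3B starting at -40 from the start and at -113 and -69 in MDH2, and in 3.42% of all 35116 promoter windows of that length. GGGCGG was found in 3 of the 7, with 5 matches in CS, 3 in IDH3A and 1 in SUCLG2, and in 42.6% of all windows. The NRF1 motif GCGCATGC and the E-box CACGTG were found in none of the 7 and in 2.63% and 6.34% of all windows. The motifs were chosen after the sequences and the signals had been seen, so these counts support nothing about the genes' control.

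Between lines under DMSO, HS578T had the lowest mean signal for 6 of these genes and SUM149PT the highest for 5. CS was highest in SUM159PT. The limma F test over the 3 lines called 7 of the 8 genes, where it called 77% of all genes tested. SUCLG2, the GTP-forming subunit of succinyl-CoA ligase, differed most (adjusted p = 1.06e-14), followed by IDH3G (4.66e-11), CS (2.98e-09), MDH2 (3.06e-09), IDH3B (6.11e-09), IDH3A (1.23e-07) and SUCLG1 (0.000185). OGDH did not pass (0.180). Because calls were so common between lines, the number called says little about these genes, and their sizes and order are described below.

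**Figure D1:**
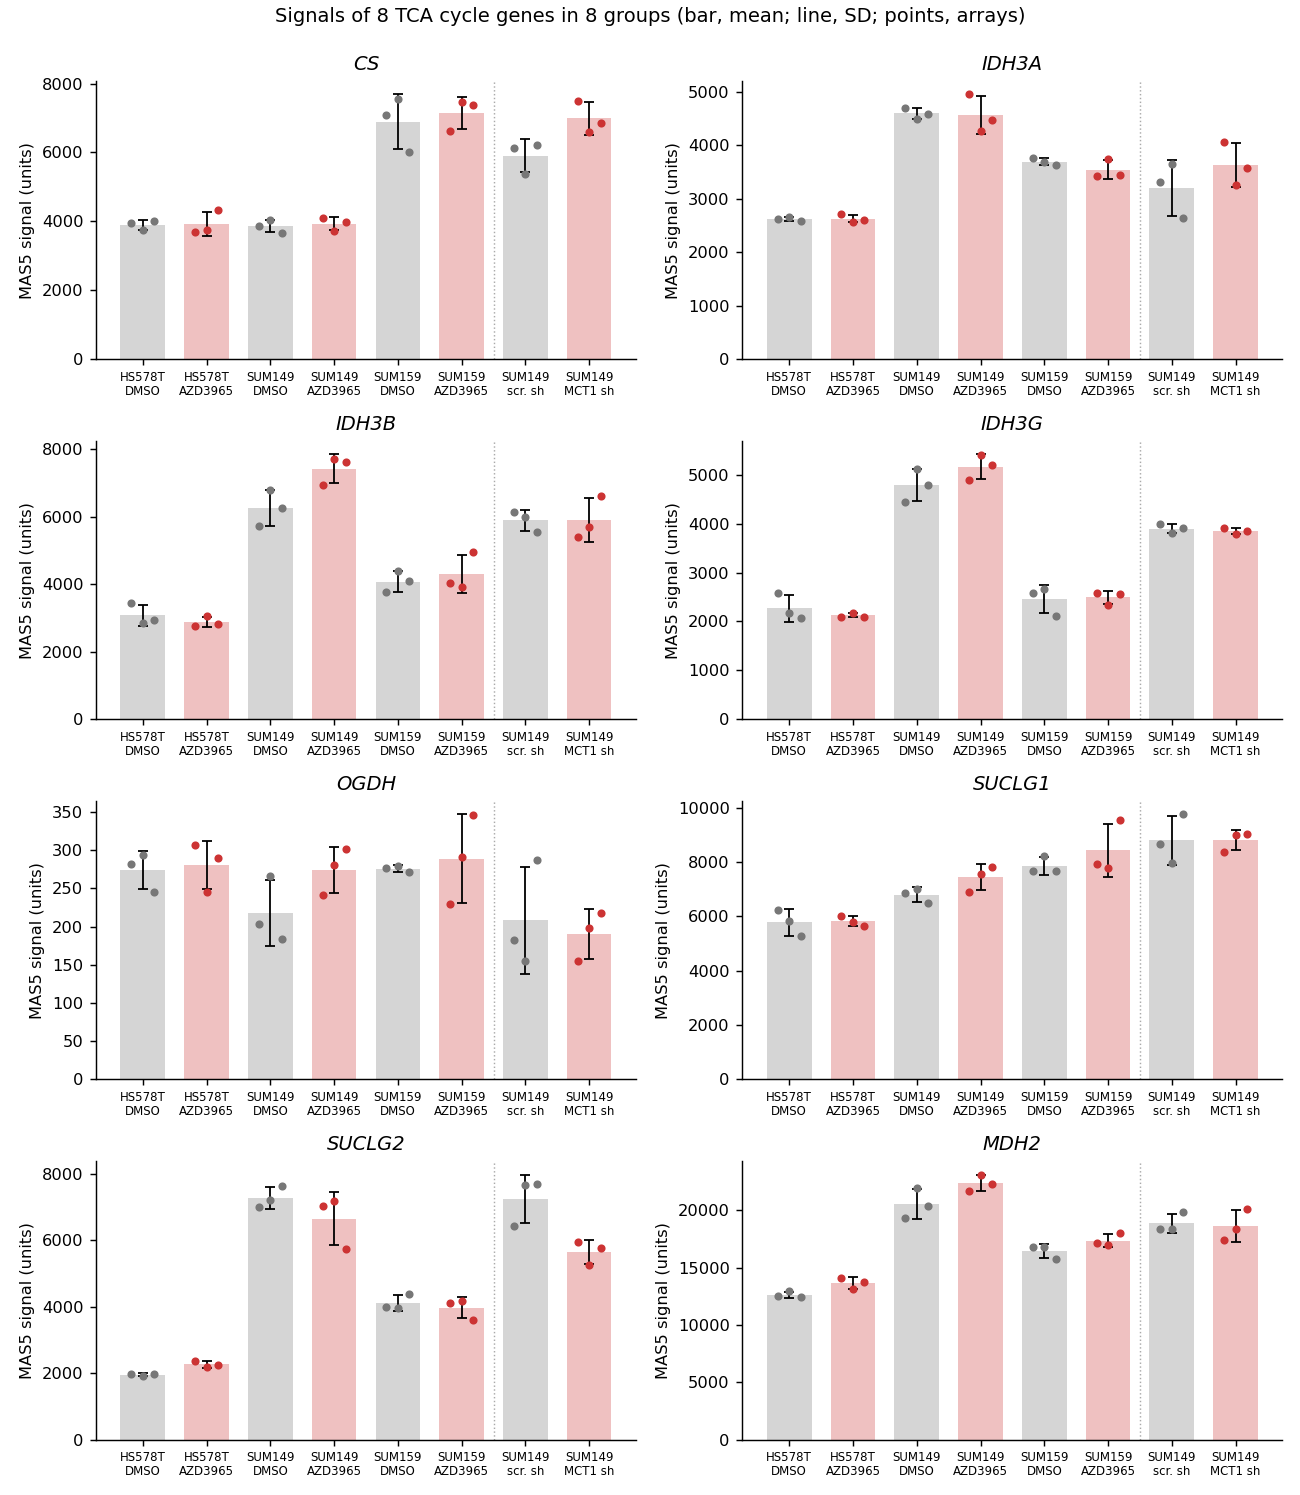
MAS5 signal (linear axis from 0, arbitrary units) of the 8 TCA cycle genes in the 8 groups, with 3 arrays as points, bars at the mean and lines at the SD; the dotted line separates the drug groups from the shRNA groups. SUCLG2 ran from a mean of 1950 in HS578T under DMSO to 7278 in SUM149PT under DMSO, while OGDH stayed between means of 191 and 289.

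CS, citrate synthase, catalyses the entry step of the cycle. Its signals under DMSO were 3948, 3740 and 4025 in HS578T, 3864, 4028 and 3678 in SUM149PT and 7097, 7565 and 6011 in SUM159PT. The first 2 lines overlapped and SUM159PT lay above both. CS was lower in HS578T than in SUM159PT (log2 difference -0.81 ± 0.09, limma adjusted p = 1.76e-08) and lower in SUM149PT than in SUM159PT (-0.83 ± 0.09, 1.08e-08). Between HS578T and SUM149PT the difference was 0.02 with a 95% interval of -0.16 to 0.20.

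NAD-dependent isocitrate dehydrogenase is built from a catalytic alpha subunit, IDH3A, and the beta and gamma subunits, IDH3B and IDH3G. IDH3A signals under DMSO were 2623, 2664 and 2584 in HS578T, 4707, 4503 and 4589 in SUM149PT and 3770, 3687 and 3637 in SUM159PT, with no overlap between any lines. IDH3B signals were 3444, 2862 and 2951 in HS578T, 5745, 6794 and 6260 in SUM149PT and 3761, 4398 and 4093 in SUM159PT. These too fell into 3 ranges that did not overlap. IDH3G signals were 2578, 2168 and 2062 in HS578T, 4447, 5108 and 4789 in SUM149PT and 2585, 2660 and 2121 in SUM159PT. For IDH3G, HS578T and SUM159PT overlapped and SUM149PT stood above both.

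In the limma fit all 3 subunits were lower in HS578T than in SUM149PT, with log2 differences of -1.07 ± 0.08 for IDH3G (adjusted p = 7.32e-11), -1.02 ± 0.10 for IDH3B (1.95e-09) and -0.81 ± 0.09 for IDH3A (3.97e-08). Against SUM159PT, HS578T was lower in IDH3A (-0.49 ± 0.09, 6.04e-05) and IDH3B (-0.40 ± 0.10, 0.000936). IDH3G differed by -0.11 ± 0.08 there (0.272). This value was called without HS578T replicate 1 (-0.21, adjusted p = 0.0435) or without SUM159PT replicate 3 (-0.21, 0.0342). In SUM149PT against SUM159PT all 3 subunits were higher, IDH3G by 0.96 ± 0.08 (7.18e-10), IDH3B by 0.62 ± 0.10 (6.88e-06) and IDH3A by 0.31 ± 0.09 (0.00495).

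Other probe sets of a gene, here and below, were tested in a limma fit of all 54675 probe sets with no filter, whose adjusted p-values are somewhat larger. All 3 IDH3B probe sets were called lower in HS578T than in SUM149PT (-1.02, -1.14 and -1.38) and both IDH3G probe sets gave -1.07. IDH3A was less even: another probe set gave -1.60 against SUM149PT, -1.59 against SUM159PT and 0.02 between both SUM lines (adjusted p = 0.951), so the called difference between SUM149PT and SUM159PT rested on 1 probe set. The remaining, dim IDH3A probe set with a mean signal of 130 gave 0.57 for HS578T minus SUM149PT (0.0120), the opposite sign.

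OGDH is the decarboxylating subunit of the 2-oxoglutarate dehydrogenase complex. Its signals were low, at 282, 294 and 246 in HS578T, 203, 266 and 183 in SUM149PT and 277, 280 and 271 in SUM159PT under DMSO. The SUM149PT arrays lay below the SUM159PT arrays and overlapped those of HS578T. None of the 3 differences passed in limma: 0.32 ± 0.19 for HS578T minus SUM149PT (adjusted p = 0.139), -0.01 ± 0.19 for HS578T minus SUM159PT (0.963) and -0.34 ± 0.19 for SUM149PT minus SUM159PT (0.132). Their 95% intervals reached from -0.73 to 0.72, so differences of that size could not be told from none. A dimmer OGDH probe set, with a mean signal of 91.9, was called lower in HS578T than in SUM159PT (-1.49, 3.50e-05) and lower in SUM149PT than in SUM159PT (-1.12, 0.000863). The mean of the 3 OGDH probe sets was called in both as well (-0.83, 0.00483, and -0.80, 0.00611).

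Succinyl-CoA ligase pairs the shared alpha subunit, SUCLG1, with a beta subunit that sets the nucleotide, SUCLG2 for GTP or SUCLA2 for ATP. SUCLG2 signals under DMSO were 1974, 1900 and 1975 in HS578T, 6981, 7214 and 7637 in SUM149PT and 3997, 3965 and 4390 in SUM159PT. No lines overlapped, and SUCLG2 had the largest span of group means of the 8 genes, 3.73-fold. It was lower in HS578T than in SUM149PT (log2 difference -1.89 ± 0.09, limma adjusted p = 3.26e-15) and than in SUM159PT (-1.07 ± 0.09, 2.00e-10), and higher in SUM149PT than in SUM159PT by 0.82 ± 0.09 (1.70e-08). Of 3 other probe sets, the bright pair gave -1.88 and -1.90 for HS578T minus SUM149PT and the dim one -1.22, all called. For HS578T minus SUM159PT the dim one was not called (-0.51, adjusted p = 0.432). For SUM149PT minus SUM159PT neither the dim one (0.72, 0.222) nor 1 of the bright pair (0.54, 0.0955) was called.

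SUCLG1 signals were 6223, 5844 and 5262 in HS578T, 6865, 7022 and 6503 in SUM149PT and 7660, 8237 and 7666 in SUM159PT. The ranges did not overlap, but the steps were small: -0.24 ± 0.08 for HS578T minus SUM149PT (limma adjusted p = 0.0165), -0.44 ± 0.08 for HS578T minus SUM159PT (7.07e-05) and -0.21 ± 0.08 for SUM149PT minus SUM159PT (0.0362). The first of these was lost without HS578T replicate 3 (-0.17, adjusted p = 0.108) or SUM149PT replicate 2 (-0.21, 0.0586). The last was lost in 4 of 6 fits that left out 1 array, which were those without SUM149PT replicate 1 (0.0615) or 3 (0.121) and without SUM159PT replicate 1 (0.0503) or 2 (0.128). It was also lost after median centring of the arrays (0.165) and without the mean-variance trend (0.0571). The difference between HS578T and SUM159PT was lost with the mean of both probe sets (-0.32, 0.0596). On the other SUCLG1 probe set, of mean signal 24.1, none of the 3 differences was called (0.34, -0.19 and -0.53 in the order above). SUCLA2, named after its values were seen because it is the alternative partner, had means of 1842 in HS578T, 2898 in SUM149PT and 3275 in SUM159PT. It was called lower in HS578T than in SUM149PT (-0.65 ± 0.11, adjusted p = 1.94e-05) and than in SUM159PT (-0.83 ± 0.11, 8.19e-07), and not called between both SUM lines (-0.18 ± 0.11, 0.177).

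MDH2, mitochondrial malate dehydrogenase, closes the cycle. Its signals under DMSO were 12514, 12941 and 12435 in HS578T, 19299, 21967 and 20404 in SUM149PT and 16772, 16812 and 15762 in SUM159PT, with no overlap. MDH2 was lower in HS578T than in SUM149PT (-0.70 ± 0.06, limma adjusted p = 8.77e-10) and than in SUM159PT (-0.38 ± 0.06, 1.62e-05), and higher in SUM149PT than in SUM159PT by 0.32 ± 0.06 (0.000127). The other MDH2 probe set, with a mean signal of 756, gave -0.06 for HS578T minus SUM149PT (0.747) and was called in the opposite direction for HS578T minus SUM159PT (0.50, 0.00104), so the place of HS578T in this order depended on the probe set.

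Counted by direction, 6 of the 8 genes were called lower in HS578T than in SUM149PT and none higher, where 64.2% of all genes were called and 33.8% called lower. The median difference of the 8 was -0.75 (log2) and that of all genes tested -0.016. Against SUM159PT 6 were also called lower and none higher, where 58% of all genes were called and 30.7% called lower, with medians of -0.42 and -0.031. Between SUM149PT and SUM159PT 5 were higher (30% of all genes), and 2, CS and SUCLG1, were lower (29.3%), 7 in all against 59.4%, with medians of 0.32 and -0.016. These 3 contrasts share arrays and are not independent of each other.

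**Figure D2:**
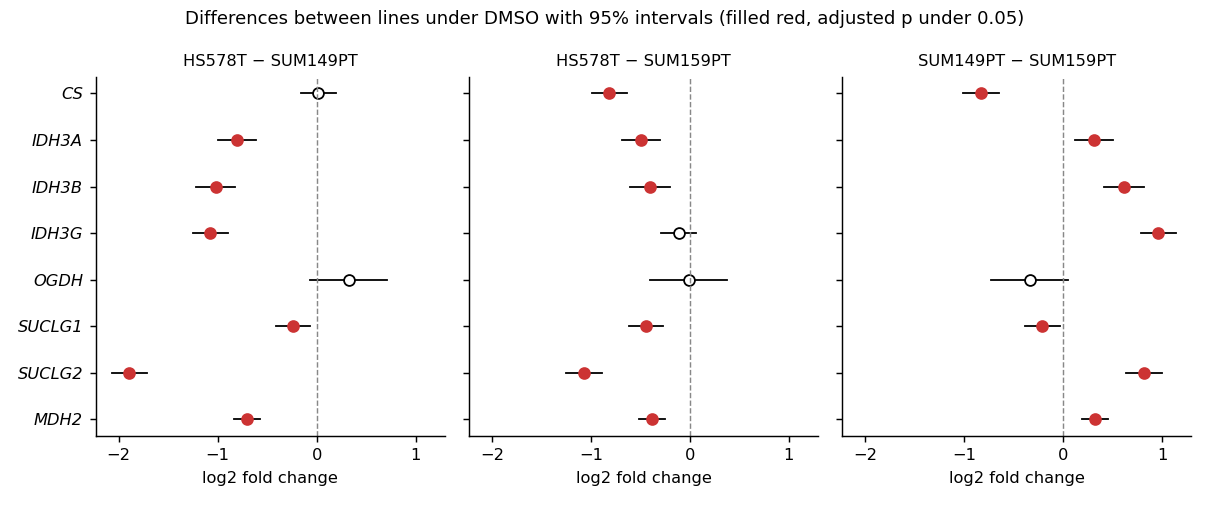
Differences between lines under DMSO on the log2 scale (horizontal axis) for each gene, with 95% intervals from limma; filled points had an adjusted p under 0.05. In both panels with HS578T the called genes lie left of 0, SUCLG2 farthest at -1.89 and -1.07, while CS and SUCLG1 lie left of 0 in the third panel and 5 genes right of it.

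The other genes of the pathway were taken from lists of 40 genes, of which 38 were annotated and 37 tested. Of 6 other mitochondrial TCA cycle subunits (DLST, DLD, SUCLA2, SDHA, SDHC and SDHD), 5 were called lower in HS578T than in SUM149PT and none higher, with a median of -0.50. Against SUM159PT 4 were lower and 1, DLD, named after its values were seen, was called higher (0.20 ± 0.07, adjusted p = 0.0233). DLST, the succinyltransferase that works with OGDH, had means of 1680 in HS578T and 3587 in SUM149PT (-1.09 ± 0.06, 9.07e-14). Among 9 other mitochondrial genes such as TOMM20 and VDAC1, 7 were called lower in HS578T than in SUM149PT and 9 lower than in SUM159PT, with medians of -0.42 and -0.63. Beside these counts, 33.8% of all genes tested were called lower in HS578T than in SUM149PT and 30.7% lower than in SUM159PT. In either direction 64.2% and 58% were called. The lower signals in HS578T were seen in mitochondrial genes outside the cycle as well. In SUM149PT against SUM159PT, 0 of these 9 genes were called higher and 4 lower, with a median of -0.20. The 6 other TCA cycle subunits had 4 higher and 1 lower there, with a median of 0.28. For the 8 members it was 5 higher and 2 lower, with a median of 0.32. The shares of all genes were 30% higher and 29.3% lower.

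Isoforms in other compartments and other relatives went both ways between lines. Of all genes tested, 30.4% were called higher and 33.8% lower in HS578T than in SUM149PT, and 27.3% higher and 30.7% lower than in SUM159PT. Of 6 such isoforms and relatives, 3 were called higher and 2 lower in HS578T than in SUM149PT, and 3 higher and none lower than in SUM159PT. The 2 that were lower, both named, were relatives of OGDH: DHTKD1, an oxoacid dehydrogenase of lysine breakdown, differed by -2.25 ± 0.08 (limma adjusted p = 6.39e-17), and the other was OGDHL. OGDHL had means of 16.7 in HS578T and 8.05 in SUM159PT, below the level of the filter, against 287 in SUM149PT. It passed the filter only through the SUM149PT groups, so no size is given and its calls against SUM149PT follow from that filter. In SUM149PT against SUM159PT, DHTKD1 was higher by 2.57 ± 0.08 (7.41e-18).

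Genes of entry, exit and transport went both ways. Of 16, 7 were higher and 7 lower in HS578T than in SUM149PT, 5 higher and 7 lower than in SUM159PT, and 5 higher and 6 lower in SUM149PT than in SUM159PT. The shares of all genes called in each direction were those given above. GOT2, the mitochondrial aspartate aminotransferase, had means of 2169 in HS578T, 8737 in SUM149PT and 5920 in SUM159PT, a difference of -2.00 ± 0.07 from SUM149PT (limma adjusted p = 4.61e-17) and -1.44 ± 0.07 from SUM159PT (3.41e-14). PDHX, a component of the pyruvate dehydrogenase complex, was lower in HS578T than in SUM149PT (-1.81 ± 0.10, 5.07e-14). PDHA1, the E1 alpha subunit of that complex, and ME2, a mitochondrial malic enzyme, were lower in HS578T than in SUM159PT (-1.47 ± 0.09, 1.34e-12, and -1.45 ± 0.08, 1.30e-13).

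With MCT1 shRNA in SUM149PT cells, SUCLG2 fell and no other of the 8 genes passed the test. Calls in this comparison were common, 14.9% of all genes and 7.64% in the lower direction, so 1 of 8 is near the share of all genes. SUCLG2 signals were 6412, 7649 and 7678 with scramble and 5931, 5248 and 5772 with MCT1 shRNA. Every shRNA array lay below every scramble array. The means were 7246 ± 723 and 5650 ± 357 (SD, n = 3 each), a log2 fold change of -0.36 ± 0.09 (0.782-fold, limma adjusted p = 0.00712).

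The call held in all 6 fits that left out 1 array (-0.44 to -0.30, limma adjusted p from 0.00212 to 0.0464), and without scramble replicate 3, the array of high actin ratio, it was -0.31 (0.0320). It was lost when only the 6 shRNA arrays were fitted (adjusted p = 0.0723). Of the other probe sets of SUCLG2, a bright one fell by 0.37 ± 0.09 (0.0181), the other bright one gave -0.27 ± 0.24 (0.662), and the dim one with a mean signal of 74.7 gave 1.02 ± 0.41 (0.185). The mean of all 4 gave 0.01 (0.986).

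SUCLG2's partner SUCLG1 had 8651, 7973 and 9746 with scramble and 8367, 8997 and 9040 with MCT1 shRNA. The groups overlapped and the difference was 0.01 ± 0.08 (limma adjusted p = 0.978), with a 95% interval of -0.17 to 0.18. SUCLA2, the ATP-forming counterpart of SUCLG2, had means of 3252 and 2976 and a difference of -0.13 ± 0.11 (0.514). Whether the SUCLG2 and SUCLA2 effects differ was not tested.

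CS signals were 6141, 5369 and 6225 with scramble and 7503, 6597 and 6860 with MCT1 shRNA. The groups did not overlap, but the difference of 0.24 ± 0.09 missed the threshold (limma adjusted p = 0.0608). It passed after quantile normalization (0.27, 0.0215) and with a stricter filter on low signals (0.0495), and in none of the 6 fits that left out 1 array (0.0513 to 0.227). IDH3A had 3319, 3653 and 2639 with scramble and 4073, 3266 and 3578 with MCT1 shRNA, with overlap (0.19 ± 0.09, 0.180). Its lowest array was scramble replicate 3. Without that array the difference was 0.06 (0.727), and without scramble replicate 2 it was called (0.29, 0.0331).

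The other members overlapped between scramble and MCT1 shRNA. IDH3B differed by -0.00 ± 0.10 (limma adjusted p = 0.995), IDH3G by -0.02 ± 0.08 (0.919), OGDH by -0.09 ± 0.19 (0.819) and MDH2 by -0.02 ± 0.06 (0.880). For MDH2, with signals of 18414, 18377 and 19829 against 17416, 18385 and 20110, the 95% interval was -0.15 to 0.11. For OGDH, with 182, 155 and 288 against 155, 199 and 218, it was -0.48 to 0.30, too wide to show a modest change. The median of the 8 was -0.01 (0.0048 after quantile normalization) and that of all genes tested -0.0034. Centring each array on its median moved the median of all genes by -0.11, and the 8 genes' median was then -0.12, with SUCLG2 called and no other member.

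**Figure D3:**
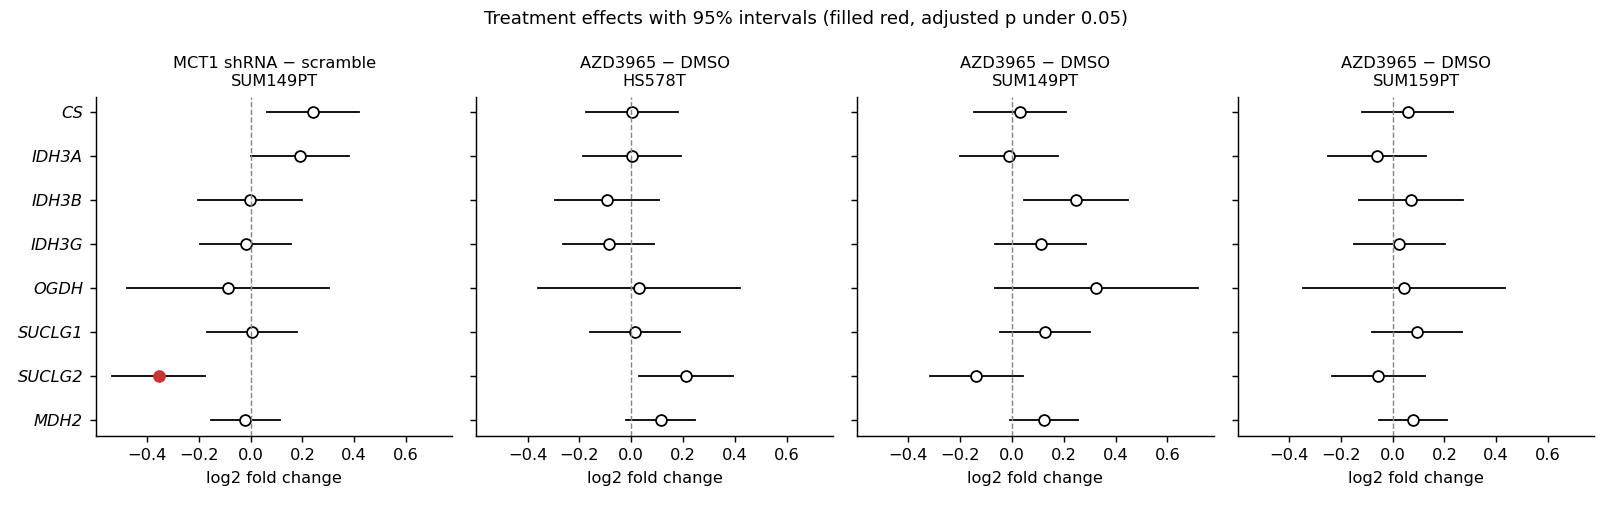
Effects of MCT1 shRNA and of AZD3965 in each line on the log2 scale (horizontal axis), with 95% intervals from limma; filled points had an adjusted p under 0.05. SUCLG2 with MCT1 shRNA, at -0.36, is the only filled point, and OGDH has the widest intervals.

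Around the cycle, the clearest rise with MCT1 shRNA was in PCK2, mitochondrial phosphoenolpyruvate carboxykinase, which takes oxaloacetate out of the cycle. Its mean rose from 723 to 1587, by 1.12 ± 0.10 (limma adjusted p = 7.43e-08), with scramble arrays between 642 and 786 and shRNA arrays between 1539 and 1669. Of all genes tested, 7.22% were called higher and 7.64% lower. Of 16 genes of entry, exit and transport, 3 were called higher and none lower. The others were PDHA1 (0.41 ± 0.09, 0.00340) and, named after its values were seen, the cytosolic aspartate aminotransferase GOT1 (0.33 ± 0.10, 0.0255).

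Of 6 isoforms and relatives, DHTKD1 fell by 0.51 ± 0.08 (limma adjusted p = 0.000159), from a mean of 4099 to 2867, and the cytosolic isocitrate dehydrogenase IDH1, also named after its values were seen, rose by 0.41 ± 0.11 (0.0119), from 5263 to 6996. None of the 6 other mitochondrial TCA cycle subunits was called, with differences from -0.14 to 0.36. Of 9 other mitochondrial genes, LONP1, a matrix protease, was called higher (0.42 ± 0.09, 0.00339). Beside these, 2 of 5 epithelial markers were called higher (7.22% of all genes), KRT19 (1.085 ± 0.10, 1.17e-07) and KRT8 (0.64 ± 0.17, 0.0121). The 5 markers' summed signal was 43760 to 48520 with scramble and 57160 to 61920 with MCT1 shRNA. Their part in the values above was not tested. KRT8 ran from 3562 to 7004 over the scramble arrays. None of these list genes and markers was refitted without scramble replicate 3, the array of high actin ratio. Nor were they refitted with other probe sets or settings, so these calls were not checked in that way.

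With AZD3965 none of the 8 genes was called in any line by limma. In HS578T 0.304% of all genes were called, in SUM149PT 0.0283% and in SUM159PT 0%, and averaged over the 3 lines 0.0283%. At an unadjusted p under 0.05 there was 1 member in HS578T (8.28% of all genes), 1 in SUM149PT (16.5%), none in SUM159PT (6.75%) and 1 in the average (14.5%). These shares are at or near the shares of all genes. The 95% intervals of the 7 genes other than OGDH lay between -0.32 and 0.45 (log2) in all 3 lines, and those of OGDH reached 0.72.

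The member in HS578T was SUCLG2, with 1974, 1900 and 1975 under DMSO and 2362, 2168 and 2251 under AZD3965. The groups did not overlap and the difference was 0.21 ± 0.09 (unadjusted p = 0.0238, limma adjusted p = 0.484). In SUM149PT the SUCLG2 arrays were 6981, 7214 and 7637 under DMSO and 7011, 7187 and 5732 under AZD3965 (-0.14 ± 0.09, 0.444), and in SUM159PT 3997, 3965 and 4390 against 4119, 4180 and 3603 (-0.05 ± 0.09, 0.925). Both SUM lines overlapped between DMSO and AZD3965. The F test of a difference between lines gave SUCLG2 an unadjusted p of 0.0248 and an adjusted p of 0.437. It called none of the 8 genes, where 0.12% of all genes were called. With the probe sets used, SUCLG2 was the only member at an unadjusted p under 0.05, where 9.99% of all genes were.

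In SUM149PT the member was IDH3B, with 5745, 6794 and 6260 under DMSO and 6941, 7708 and 7639 under AZD3965. The groups did not overlap (0.25 ± 0.10, unadjusted p = 0.0181, limma adjusted p = 0.212). IDH3B differed by -0.09 ± 0.10 in HS578T (0.894) and 0.07 ± 0.10 in SUM159PT (0.907). Its other probe sets in SUM149PT gave 0.19 and 0.21 (0.370 and 0.305). For a difference between lines these had limma F values of 7.35 and 4.52 (adjusted p = 0.462 and 0.621). The SUCLG2 probe set used had 4.18 in that fit (0.645).

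In the average over lines the member was MDH2 (0.11 ± 0.04, unadjusted p = 0.00856, limma adjusted p = 0.228). MDH2 signals under AZD3965 were 14142, 13117 and 13733 in HS578T, 21738, 23131 and 22301 in SUM149PT and 17148, 16972 and 18009 in SUM159PT. In HS578T and SUM159PT every AZD3965 array lay above every DMSO array, and in SUM149PT 1 of 3 lay below the highest DMSO array. The effects were 0.11 ± 0.06, 0.12 ± 0.06 and 0.08 ± 0.06. Over the alternatives the average ranged from -0.00067 to 0.17 and was never called (0.120 to 0.996).

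The remaining members under AZD3965 overlapped with DMSO in every line. CS effects were 0.00, 0.03 and 0.06 in HS578T, SUM149PT and SUM159PT. IDH3A effects were 0.00, -0.01 and -0.06, IDH3G effects -0.09, 0.11 and 0.03, and SUCLG1 effects 0.01, 0.13 and 0.10. OGDH effects were 0.03, 0.33 and 0.04, with signals in SUM149PT of 203, 266 and 183 under DMSO and 242, 280 and 302 under AZD3965 (limma adjusted p = 0.396). The median of the 8 effects was 0.0091, 0.12 and 0.051 in HS578T, SUM149PT and SUM159PT, beside -0.019, 0.042 and 0.0035 for all genes tested, and it moved with the scaling. It was -0.0093, 0.061 and 0.023 after quantile normalization and 0.17, 0.058 and 0.14 after median centring. None of the 37 other pathway genes was called in any line either.

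Between agents in SUM149PT, the MCT1 shRNA effect minus the AZD3965 effect was called for none of the 8 genes by limma, where 9.52% of all genes were called, and none had an unadjusted p under 0.05, where 24.1% did. SUCLG2 fell with MCT1 shRNA and was not called with AZD3965, but the difference of both effects was -0.22 ± 0.12 (95% interval -0.47 to 0.04, adjusted p = 0.294). The median over the 8 genes was -0.14 and over all genes -0.042, and after quantile normalization these were -0.066 and -0.058. For CS the difference was 0.21 ± 0.12 (-0.04 to 0.46, 0.300) and for IDH3B -0.25 ± 0.14 (-0.53 to 0.04, 0.280). Outside the members, PCK2 (1.13 ± 0.15, 2.69e-05), IDH1 (0.53 ± 0.15, 0.0309) and DHTKD1 (-0.65 ± 0.12, 0.00115) were called in this difference. Time, selection and delivery differ between both experiments and cannot be told apart from the agent.

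**Figure D4:**
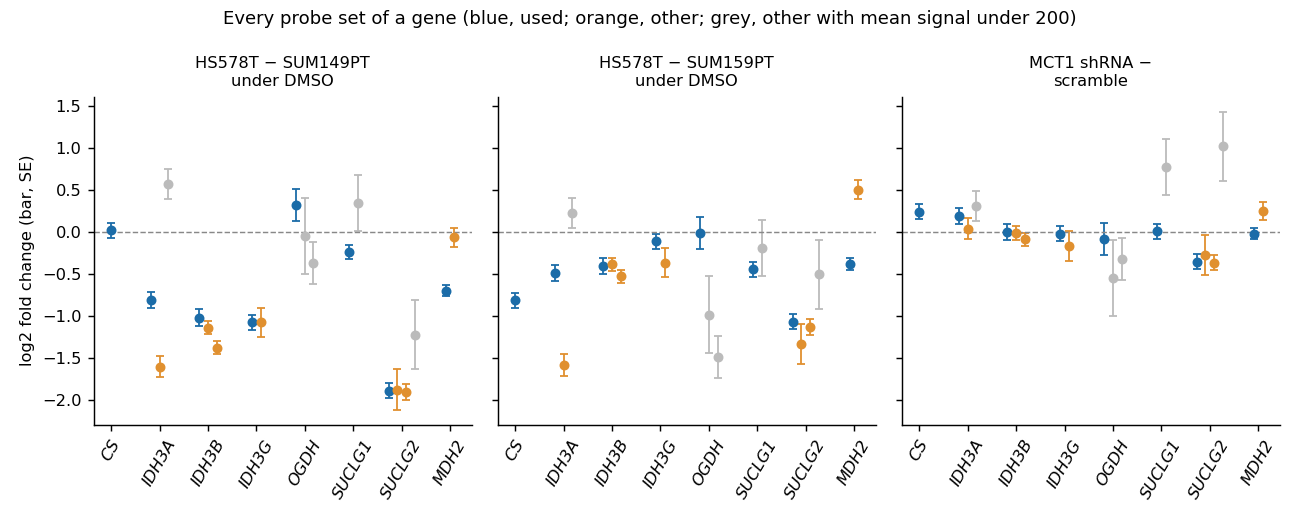
Log2 fold changes (vertical axis, bars at the SE) of every probe set of each gene in 3 comparisons, with the probe set used in blue, others in orange and others of mean signal under 200 in grey. The IDH3B, IDH3G and bright SUCLG2 probe sets lie at or below 0 in each panel, with some spread. IDH3B runs from -1.38 to -1.02 for HS578T minus SUM149PT, and IDH3G lies at -0.11 and -0.37 for HS578T minus SUM159PT. MDH2's second probe set lies at 0.50 beside -0.38 for HS578T minus SUM159PT.

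Across the 24 arrays the members fell into a group that moved together and others that did not. Pearson's r of log2 signals was 0.947 for IDH3B and MDH2, 0.943 for IDH3B and IDH3G and 0.927 for SUCLG2 and MDH2, given as a description since arrays of a line share its level. CS ran with SUCLG1 (0.773) and with none of the others (-0.14 to 0.22). OGDH had a negative r with all 7 other members (-0.48 to -0.13). The median over 28 pairs was 0.503, and 0.120 once each array's group mean was taken away, so most of the shared pattern lay between groups. Within groups OGDH ran with SUCLG1 (0.794) and MDH2 (0.747), and without scramble replicate 3 these were 0.731 and 0.729 over 23 arrays.

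**Figure D5:**
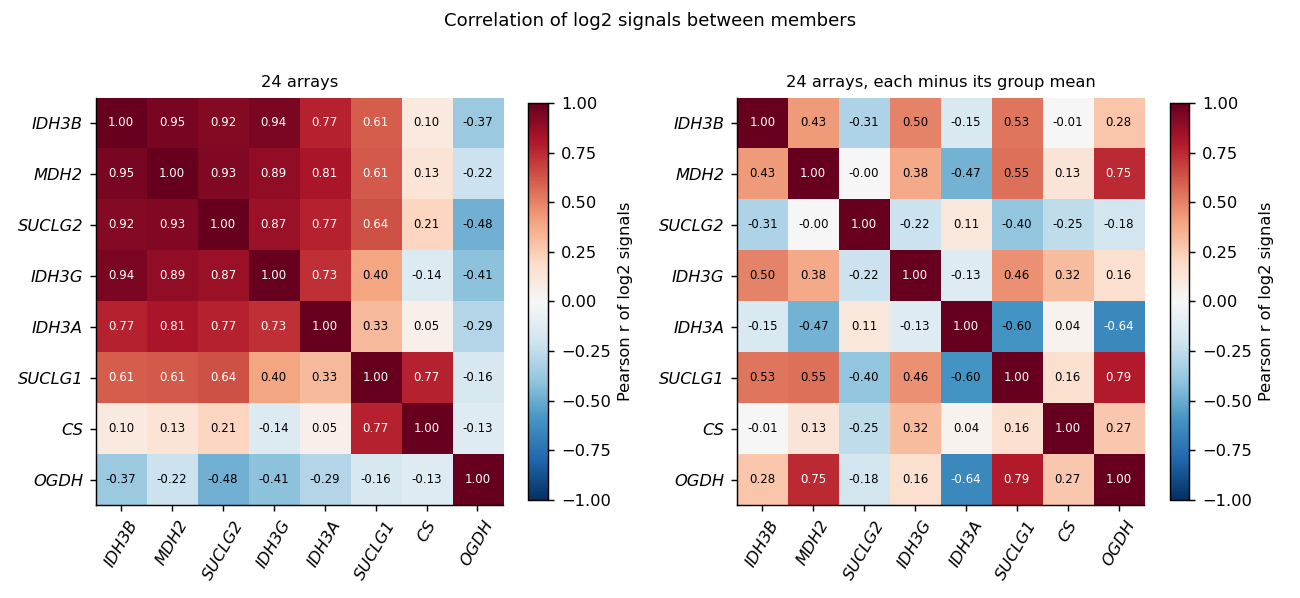
Pearson's r of log2 signals between the members over 24 arrays (left) and after taking away each group's mean (right), on a colour scale from -1 to 1. IDH3B, MDH2, SUCLG2 and IDH3G form the red block at the upper left of the left panel, with r from 0.87 to 0.95. In the right panel the pairs among IDH3B, MDH2 and IDH3G have r from 0.38 to 0.50. Their pairs with SUCLG2 have r from -0.31 to -0.001 there.

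The mean of the 8 standardized log2 profiles was lowest in HS578T, at -1.09 under DMSO and -1.03 under AZD3965, and highest in SUM149PT under AZD3965 (0.723), whose arrays (0.618 to 0.785) overlapped those under DMSO (0.260 to 0.644). SUM159PT was at 0.0722 and 0.182, and the scramble and MCT1 shRNA groups at 0.356 and 0.395, each pair overlapping. The 5 genes outside the list whose 24 values were most like this mean were ATP5MC3 (r = 0.985), a subunit of the ATP synthase ring, MGST1 (0.983), EMG1 (0.982), ARPC5L (0.982) and GSTO1 (0.981).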

How the data were processed

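The intensity of each probe set on 24 arrays (8 groups) was deposited on a linear scale, computed with MAS5 per the submitters' processing notes, with no software version given there. All arrays had the same 2% trimmed mean, 500.1, so the authors' values were already scaled and were not normalized again. Of 54675 probe sets 41097 had 1 gene symbol, 1801 several and 11777 none. By gene ID, 41043 with 1 symbol were matched to a reference gene and took its current symbol, which may be the same symbol.

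For each of 19775 genes the probe set of highest mean log2 value was kept, and log2 of the signal plus an offset of 16 was analysed, which understates the changes of dim genes. The 14141 genes whose mean log2 value reached 5.58, the 40th percentile over probe sets, were tested. A model of 8 group means was fitted with limma 3.58.1 in R 4.3.3 (eBayes with a mean-variance trend, 16 residual and 6.52 prior degrees of freedom). Tests were two-sided. The pipeline was tested on simulated data.

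The members and lists were chosen with earlier results of these data known. All members were named, with at most the 4 called list genes of smallest p in a comparison and the 5 genes most like the members' mean. For the members, but not for single list genes or markers, alternatives covered normalization, offset, filter, probe set, arrays fitted, the trend, a replicate block and each array left out. The choice by mean log2 value followed a first fit by mean signal, which is an alternative chosen after seeing the data. The main fit did not pair arrays by replicate number. The number of arrays limits the precision. Promoter sequences are from RefSeq (GRCh38.p14).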

Additional observations from a re-analysis of the deposited data

How the results depend on the processing

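Counts of members called under the alternatives differed from those reported by over 1.5 times in the MCT1 shRNA comparison alone, where 1 was called. It was 2 after quantile normalization and with the filter at the 60th percentile (CS joined), 0 with the mean of all probe sets and 0 with only the arrays compared, and 1 to 2 over fits without 1 array. The counts over such fits were 5 to 6 for HS578T minus SUM149PT, 6 to 7 for HS578T minus SUM159PT and 6 to 7 for SUM149PT minus SUM159PT, and otherwise kept the reported number. Other probe sets give values for genes, not a count of members.

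A value is called turned here where its sign changed and it was called before or after. The mean of all probe sets turned SUCLG2 with MCT1 shRNA (0.00668), SUCLG1 for HS578T minus SUM149PT (0.0521), MDH2 for HS578T minus SUM159PT (0.0601) and IDH3A for SUM149PT minus SUM159PT (-0.0052). Single other probe sets turned SUCLG2 with MCT1 shRNA (1.02), SUCLG1 for HS578T minus SUM149PT (0.34), MDH2 for HS578T minus SUM159PT (0.50), and IDH3A for HS578T minus SUM149PT (0.57), HS578T minus SUM159PT (0.23) and SUM149PT minus SUM159PT (-0.35). The cause was not tested. Among the members' values, 567 of 576 without 1 array, 92 of 108 from other probe sets and 780 of 792 under the other settings kept their side of the threshold and were not turned. Values not called before or after could change sign and still count as kept.

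Median centring moved the median of all genes by -0.11 with MCT1 shRNA, by 0.16 for AZD3965 in HS578T and by -0.10 for HS578T minus SUM149PT. It gave 398 higher and 1328 lower genes with MCT1 shRNA, against 1021 and 1080. Same-numbered arrays correlated from -0.13 to 0.23 in their deviations, 2 of 21 pairs over 0.1, and 10 of 21 matched their own number best. Every number matched best between SUM149PT under DMSO and AZD3965 (0.083, 0.046 and 0.062). This also held between SUM149PT and SUM159PT under DMSO (0.154, 0.070 and 0.23), so some pairing of the SUM arrays is possible. With the replicate number as a block the members' counts were the same, 1 for MCT1 shRNA (SUCLG2, limma adjusted p = 0.0346). Choosing probe sets by mean signal, which was done first, gave 14127 genes tested and 2120 called with MCT1 shRNA against 2101, the same probe sets for all 8 members and the same calls. With 3 arrays a group, small differences of OGDH, whose intervals were the widest, are beyond these data.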

Other observations

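The 2 control groups of SUM149PT, scramble shRNA and DMSO, belong to different experiments and were not compared by a test. CS was 1.53 times as high with scramble as with DMSO (5369 to 6225 against 3678 to 4028) and SUCLG1 1.29 times (7973 to 9746 against 6503 to 7022). IDH3A was 0.697 times as high (2639 to 3653 against 4503 to 4707) and IDH3G 0.815 times (3803 to 3993 against 4447 to 5108). These 4 genes did not overlap between the controls, while IDH3B, OGDH, SUCLG2 and MDH2 did, with ratios from 0.918 to 0.996. For CS, SUCLG1, IDH3A and IDH3G the gap between controls was larger than the gene's effect of AZD3965 in any line or of MCT1 shRNA. Experiment, vector, puromycin and array processing cannot be told apart.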
